A study of Mus musculus with 6 samples.

Results

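The genes described here encode the subunits of oxidative phosphorylation, the 5 protein complexes of the inner mitochondrial membrane that oxidize NADH and succinate, reduce oxygen and make ATP. They were chosen by gene symbol alone, as subunits of complexes I to V encoded in the nucleus or in the mitochondrial genome. Symbols that contain -ps were left out. Of 54752 gene identifiers in the count table, 102 met this rule, 89 of them nuclear and 13 mitochondrial. Of the nuclear members, 38 belong to complex I, 4 to complex II, 8 to complex III, 21 to complex IV (Ndufa4 and Ndufa4l2 counted there) and 18 to complex V. They include 4 that are annotated as processed pseudogenes (Ndufa11b, Ndufb4c, Ndufs6b and Cox6c2) and 2 identifiers named Atp5o, 1 of which had 0 counts. Of the mitochondrial members, 7 belong to complex I, 1 to complex III, 3 to complex IV and 2 to complex V. RNA was sequenced after removal of rRNA, as single-end reads of 50 bases, from NIH/3T3 cells, an established line of mouse embryonic fibroblasts that all 3 groups share. The vehicle group received PBS. Both other groups received 1 ng/ml of TGF-β1, which was combined with DMSO in the DMSO group and with 5 μM of BI6727, an inhibitor of the kinase PLK1, in the BI6727 group. Each treatment lasted 72 h, and each group held 2 replicates. The vehicle cells were not given DMSO according to the labels, so TGF-β1 and DMSO cannot be told apart in a comparison with vehicle. The study asked which transcripts change as these cells turn into myofibroblast-like cells under TGF-β1 and whether inhibition of PLK1 alters that change.

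Electrons enter the chain at complex I (NADH dehydrogenase) or complex II (succinate dehydrogenase), pass through complex III (the cytochrome bc1 complex) and complex IV (cytochrome c oxidase), and the resulting proton gradient drives complex V (ATP synthase). Complexes I, III, IV and V are built from subunits of both genomes, whereas all 4 subunits of complex II are nuclear. The mitochondrial genes are copied as long transcripts from both strands and cut into single mRNAs. Several nuclear subunits of complex IV have a second isoform that is used in heart and skeletal muscle, lung or testis.

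Libraries held 18362378 to 24452153 counts on genes. The 4 libraries of the vehicle and BI6727 groups agreed closely within their groups, but the DMSO replicates stood apart from each other. The SD of the difference between replicates over all 9518 genes tested, in log2 CPM (counts per 1000000 counts of the library, with TMM scaling), was 0.163 in vehicle, 0.377 in DMSO and 0.147 in BI6727. Short genes were higher in DMSO replicate 2, by a median of 0.45 in log2 CPM below 1000 bases, and long genes were lower, by a median of -0.28 from 6000 bases upward. Most of the nuclear members are short, with a median exonic length of 1587 bases against 4426 for all genes tested, so the DMSO replicates are given apart throughout. As a check of the label, the fibroblast markers were present, with Vim at 4014 to 5126 normalized CPM. The summed level of 4 epithelial markers did not exceed 0.61 normalized CPM, that of 3 leukocyte markers 4.69 and that of 3 endothelial markers 3.57. Of 9 fibroblast markers, 3 fell in DMSO and 5 in BI6727 against vehicle and none rose. Of all genes tested, 12.0% and 13.2% were called lower in these comparisons, and 11.0% and 11.3% higher. The median log2 fold change of the 9 markers was -0.67 in DMSO and -1.0 in BI6727, and their part in the results was not tested. Among 5 striated muscle markers, the defining Ckm, Myh6 and Myh7 were at or below 0.111 normalized CPM, and Tnnt2, a cardiac troponin, rose from 8.15 and 10.2 normalized CPM in vehicle to between 175 and 272 in the other 4 libraries.

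Transcripts of the mitochondrial genome outweighed those of the nuclear subunits in every library. The 13 mitochondrial genes took 4.48% and 4.59% of all counts in vehicle, 3.24% and 5.29% in DMSO, and 4.27% and 4.55% in BI6727. The 89 nuclear genes took 1.15% and 1.12% in vehicle, 1.10% and 1.36% in DMSO, and 1.23% and 1.18% in BI6727. The highest and the lowest mitochondrial share were thus both found in the DMSO group, and its 2 libraries enclosed all others for both genomes. For each nuclear count there were 3.89 and 4.11 mitochondrial counts in vehicle, 2.94 and 3.87 in DMSO, and 3.48 and 3.86 in BI6727. As group means, the mitochondrial share was 4.54% ± 0.077 in vehicle, 4.26% ± 1.4 in DMSO and 4.41% ± 0.20 in BI6727 (SD, n = 2), and the nuclear share was 1.14% ± 0.024, 1.23% ± 0.19 and 1.20% ± 0.034. With 2 libraries against 2, an exact permutation test cannot give a p-value below 0.333, so none is given for these sums. In bulk RNA, fewer cells of a kind and less RNA per cell cannot be told apart. The 2 mitochondrial rRNAs, which the depletion step may also remove, took 0.168% to 0.291% of counts.

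**Figure D1:**
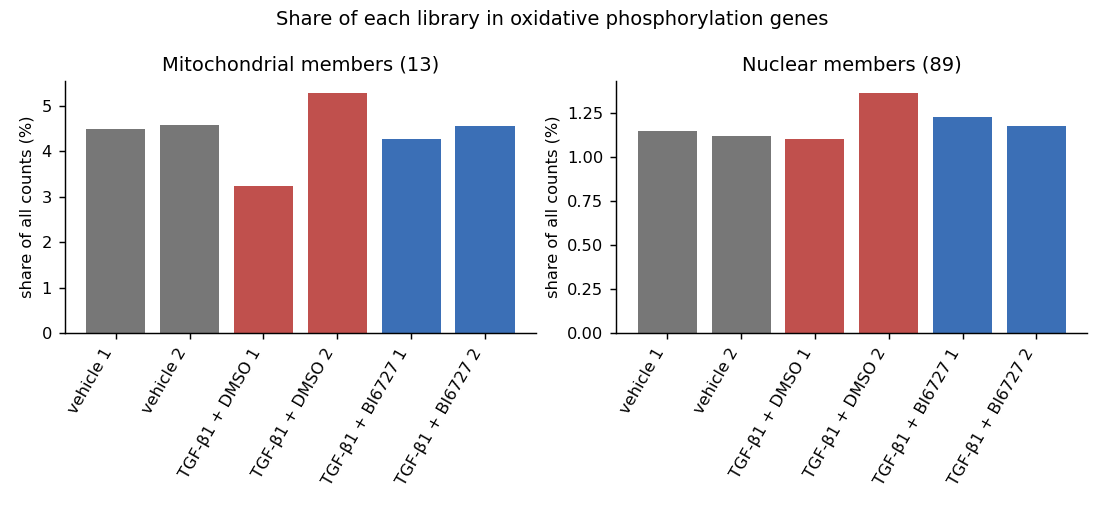
Share of all counts on genes, in percent, taken by the 13 mitochondrial members (left) and the 89 nuclear members (right), with 1 bar for each library and bars starting at 0. The DMSO libraries hold both the lowest (3.24%) and the highest (5.29%) mitochondrial share, and the other 4 libraries lie between 4.27% and 4.59%.

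Levels within the mitochondrial genome fell into a high and a low set. Per kb of exon, in the mean of the vehicle libraries, mt-Co1 stood at 10640 CPM, mt-Nd1 at 9026, mt-Cytb at 6552, mt-Nd2 at 4675, mt-Nd5 at 2367, mt-Nd4 at 1975 and mt-Nd6 at 1785. These 7 encode the catalytic subunit of complex IV, cytochrome b of complex III and 5 membrane subunits of complex I. The other 6 were far lower, with mt-Atp6 at 135 CPM per kb, mt-Co2 at 130, mt-Co3 at 119, mt-Nd3 at 24.5, mt-Nd4l at 22.1 and mt-Atp8 at 12.8. These genes encode the remaining core subunits of complex IV, the mitochondrial subunits of ATP synthase and the smallest mitochondrially encoded subunits of complex I. On chromosome 1 of the mm10 build, a nuclear copy of the mitochondrial genome is annotated as a run of unprocessed pseudogenes from 24611535 to 24616197. All of the 6 low genes except mt-Atp8 also occur in those pseudogenes. Between 99.0% and 100% of their 50-base coding windows, the length of a read, were found in transcripts of other genes, against 0% for mt-Nd1, mt-Cytb and mt-Nd6. Of the other genes of the high set, mt-Nd5 shared 7.62% of windows, mt-Nd2 8.21%, mt-Co1 51.0% and mt-Nd4 62.2%. The opening bases of mt-Co2 are shown for what a read of that gene holds, and its 681 aligned coding bases do not differ from pseudogene Gm28661 (chr1:24614885-24615565, minus strand) at any position.

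mt-Co2 and Gm28661, coding bases 1 to 60: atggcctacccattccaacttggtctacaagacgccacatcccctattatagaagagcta

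The counts were spread over both places. mt-Co2 held 1662 and 2022 counts in vehicle, 1378 and 2888 in DMSO and 2102 and 2641 in BI6727, and Gm28661 held 2014 and 2285, 1470 and 2969, and 2044 and 2849 in the same order. mt-Co1 held 217870 to 372997 counts against 742 to 1782 on its partial copy Gm29216. How reads that match both places were counted is not given in the sources used here, and its part in the low levels was not tested. mt-Atp8 shared 0% of windows with annotated transcripts of other genes, and whether chromosome 1 also holds its sequence was not tested. It held only 36 to 73 counts, and it overlaps mt-Atp6 as mt-Nd4l overlaps mt-Nd4. Levels of these 6 genes are therefore uncertain. So are those of mt-Co1 and mt-Nd4, with 51.0% and 62.2% of windows shared. Of the windows of mt-Co1, 28.6% are in Gm29216, 1 of 3 genes that share windows with it. The level of mt-Nd6 is uncertain as well, as it lies on the strand opposite to the others and the strand setting of the counting is not given. The 7 copies on chromosome 1 held 0.0338% to 0.0658% of counts.

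Among the 89 nuclear genes, 69 reached 10 CPM in more than 3 libraries, the study's own limit for an expressed gene, and 11 of the 13 mitochondrial genes did. Per kb of exon, the highest of the 69 in vehicle were Cox8a (812 CPM), Cox6a1 (467 CPM) and Atp5b (434 CPM), and the lowest were Atp5g1 (4.20 CPM), Atp5h (8.72 CPM) and Atp5o (9.26 CPM). The ATP synthase catalytic subunit Atp5b had the highest CPM without division by length, with 1852 and 1823 in vehicle. The 20 nuclear genes below the limit comprised 7 of complex I, 9 of complex IV and 4 of complex V.

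The 8 tissue isoforms all belonged to those 20. Cox4i2, the lung and hypoxia form of subunit 4, had 4 and 2 counts in vehicle and 0 in the other 4 libraries, against 8303 or more of its ubiquitous partner Cox4i1. The muscle forms Cox6a2 and Cox7a1, the testis forms Cox7b2 and Cox8c, and Ndufa4l2 stayed at or below 0.58 normalized CPM in every library. Cox6b2 (testis) and Cox8b (muscle) had 0 counts in all 6 libraries, which allows at most 3 counts in a library. None of the 8 shared a coding window with another gene. The ubiquitous partners were abundant, with 431 and 436 normalized CPM for Cox4i1, 341 and 315 for Cox6a1, 197 and 186 for Cox6b1, 108 and 110 for Cox7a2, 449 and 436 for Cox8a and 346 and 336 for Ndufa4 in vehicle.

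The rest of the 20 included constitutive subunits whose coding sequence recurs in processed pseudogenes, intronless copies of an mRNA. Atp5l, subunit g of ATP synthase, held 28 to 53 counts, whereas its intronless copy Gm10221 held 3369 to 6008. Ndufs5 of complex I held 6 to 21 counts against 2043 to 3196 for BC002163, and Cox7c held 129 to 243 against 3622 to 6656 for Gm12338. Ndufa12 held 60 to 80 counts against 2247 to 3389 for Gm15920. Among genes that did pass, Atp5h held 242 to 375 counts against 4757 to 7120 for Gm10250, Atp5g1 held 358 to 506 against 2852 to 4417 for Gm10039, and Cox5b held 305 to 448 against 2511 to 3382 for Gm11273, which is annotated as protein-coding. Over the 35 constitutive nuclear members with no shared window, the median level per kb of coding length in vehicle was 243 CPM and 34 passed. Over the 5 with at least 90% of windows shared, it was 6.67 CPM and 1 passed. For each nuclear member with at least 10% of windows shared, the gene that shares the most windows was taken. Among these genes were 18 pseudogenes that are not members, and their counts summed to 0.140% to 0.198% of a library. Other genes that share windows are not in that sum. The Ndufs5 stretch below is shown for how few bases separate such a pair, with capitals at the bases that differ. Over its 318 coding bases, 2 differ from BC002163 (chr16:42955631-42955949, plus strand). Atp5l and Gm10221 (chr5:24581554-24581862, minus strand) do not differ over 309.

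Ndufs5, coding bases 46 to 105: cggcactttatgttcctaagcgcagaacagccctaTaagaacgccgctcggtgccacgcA
BC002163, aligned bases: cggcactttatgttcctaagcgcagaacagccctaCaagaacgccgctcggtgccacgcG
Atp5l and Gm10221, coding bases 1 to 60: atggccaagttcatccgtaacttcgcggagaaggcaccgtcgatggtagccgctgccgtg

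TGF-β1 with DMSO was compared with vehicle for the change of these genes as the cells respond to the cytokine. Of the 80 members tested, 2 rose and 1 fell at an adjusted p below 0.05 (edgeR's quasi-likelihood test, Benjamini-Hochberg over all 9518 genes). Of all genes tested, 11.0% were called higher and 12.0% lower, and these 3 calls do not exceed that background. Uqcrc1, a core subunit of complex III, and Cox7a2l, which takes part in joining complexes III and IV, were the genes that rose. Sdhc, a membrane anchor of complex II, was the gene that fell.

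Uqcrc1 (ENSMUSG00000025651.14, mm10 chr9:108936633-108949623, plus strand) stood at 233 and 227 normalized CPM in vehicle, 284 and 371 in DMSO, and 323 and 301 in BI6727. All 4 libraries with TGF-β1 lay above both vehicle libraries. Its log2 fold change in DMSO was 0.51 (SE 0.135, adjusted p = 0.0335 by edgeR). Against vehicle, the BI6727 group was at 0.44 (SE 0.135, adjusted p = 0.0528). Cox7a2l (ENSMUSG00000024248.14, chr17:83501918-83517330, minus strand) stood at 185 and 188 in vehicle, 226 and 336 in DMSO, and 283 and 272 in BI6727. Here too all 4 libraries with TGF-β1 lay above vehicle, with a log2 fold change of 0.59 in DMSO (SE 0.173, adjusted p = 0.0465) and 0.58 in BI6727 (SE 0.173, adjusted p = 0.0494), both from edgeR. Of the coding windows of Cox7a2l, 71.5% are also in the processed pseudogene Gm6969 (chr12:24638669-24639010, minus strand), so its counts are uncertain. Gm6969 held 2776 to 5615 counts, and its own log2 fold change was 0.59 in DMSO (adjusted p = 0.0369) and 0.49 in BI6727 (adjusted p = 0.0641). Over 333 aligned bases, 2 differ between them, 1 of which is the capital below, and the alignment also holds 1 gap.

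Cox7a2l, coding bases 214 to 273: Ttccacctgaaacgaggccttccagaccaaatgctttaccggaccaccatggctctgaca
Gm6969, aligned bases: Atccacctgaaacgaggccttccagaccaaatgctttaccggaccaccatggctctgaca

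Sdhc (ENSMUSG00000058076.12, chr1:171127165-171150603, minus strand) went the other way, with 140 and 137 normalized CPM in vehicle, 84.4 and 106 in DMSO, and 95.6 and 93.0 in BI6727. None of its coding windows recurs in annotated transcripts of another gene. The log2 fold change was -0.54 in DMSO (SE 0.122, adjusted p = 0.0193) and -0.55 in BI6727 (SE 0.122, adjusted p = 0.0164) by edgeR. Its partners in complex II split: Sdha, the flavoprotein, was also lower in all 4 libraries with TGF-β1 (184 and 189 in vehicle, 162 and 150 in DMSO, 156 and 154 in BI6727), although not called (-0.26, adjusted p = 0.0810 by edgeR). Sdhb, the iron-sulfur subunit, was at 0.14 and the anchor Sdhd at 0.16, and neither passed the test. The calls of Sdhc, Uqcrc1 and Cox7a2l in DMSO ended in a fit of only the vehicle and DMSO groups, with adjusted p-values of 0.0637, 0.0793 and 0.0946 by edgeR, where 6.46% of all genes were called higher and 6.64% lower. They also ended when any vehicle or BI6727 replicate was left out, with adjusted p-values of 0.0572 to 0.145, 0.0837 to 0.206 and 0.0988 to 0.250 in that order.

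**Figure D2:**
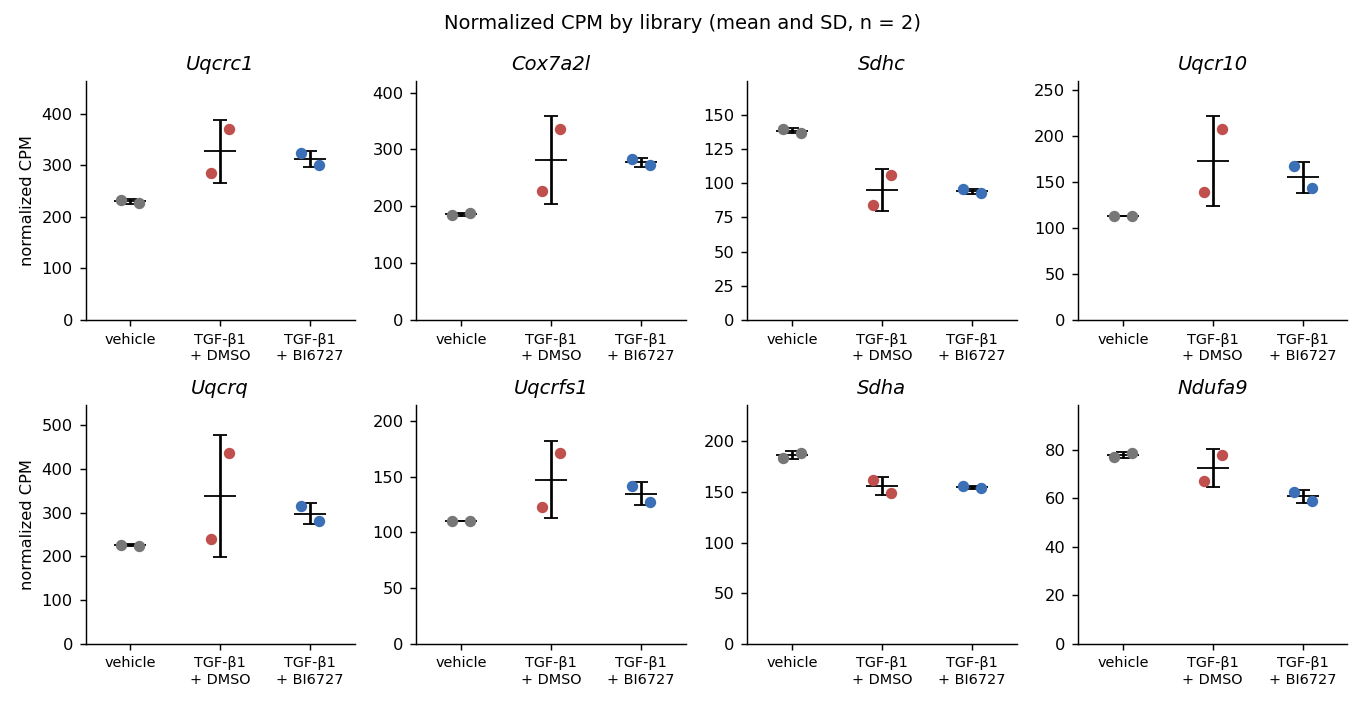
Normalized CPM of 8 members by library (points), with the mean and SD of each group (n = 2) and axes that start at 0. Uqcrc1, Cox7a2l, Uqcr10, Uqcrq and Uqcrfs1 are higher, and Sdhc and Sdha lower, in all 4 libraries with TGF-β1 than in both vehicle libraries, and the DMSO replicates lie farther apart than those of the other groups in all 8 genes.

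By complex, the nuclear subunits of complexes III and IV had the highest medians. In DMSO against vehicle, the median log2 fold change was 0.35 over the 8 genes of complex III, with all 8 above 0, and 0.30 over the 12 of complex IV, with all 12 above 0. It was 0.15 over the 14 of complex V, 0.10 over the 31 of complex I and -0.06 over the 4 of complex II, against 0.00 over all genes tested (-0.0045). The 12 of complex IV include Cox6c2, a processed pseudogene that shares 52.7% of its windows with Cox6c. Only 2 of these 69 genes were called higher, so the medians describe the lists and are no test of them. Besides Uqcrc1, complex III members with all 4 TGF-β1 libraries above vehicle were Uqcr10, Uqcrq and the Rieske iron-sulfur protein Uqcrfs1. Uqcr10, a small subunit, was at 113 and 113 normalized CPM in vehicle, 139 and 208 in DMSO, and 167 and 144 in BI6727, and narrowly missed the limit at 0.62 (SE 0.185, adjusted p = 0.0507 by edgeR). Uqcrc2, the other core protein, was at 0.02 (adjusted p = 0.905). In complex IV, Cox4i1, Cox6b1, Cox7a2 and Cox7a2l lay above vehicle in all 4 libraries, and in complex V Atp5b, Atp5h, Atp5j and Atp5mpl did. In all, 14 of 69 nuclear members lay wholly above vehicle and 4 wholly below, against 26.0% and 28.5% of all genes tested, so neither share exceeds the background. No mitochondrial gene was without overlap.

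The core subunits named here of complexes I and V did not pass the test. Ndufs1, the largest subunit of complex I, was at -0.12 and Ndufv1, which binds NADH, at -0.04 on the log2 scale in DMSO against vehicle, with adjusted p-values of 0.361 and 0.809 by edgeR. Atp5a1, Atp5b and Atp5c1, the α, β and γ subunits of the catalytic part, were at -0.08, 0.12 and -0.02. Cox5a was at 0.36 (adjusted p = 0.0898) and Cox5b, with 61.5% of windows shared, at 0.08.

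None of the 11 mitochondrial genes tested was called in any comparison in the fit of all 6 libraries with no offset or block. Their median log2 fold change was 0.01 in DMSO and 0.01 in BI6727 against vehicle, but -0.23 and -0.10 with offsets for gene length, and their median SE of 0.27 was larger than the 0.17 of the nuclear genes. mt-Nd1 was at 8346 and 8931 normalized CPM in vehicle, 6973 and 13518 in DMSO, and 9058 and 9275 in BI6727. mt-Co1 was at 16449 and 16429 in vehicle, 10519 and 17958 in DMSO, and 14652 and 15203 in BI6727. mt-Cytb was at 7410 and 7581, 4991 and 8683, and 6980 and 7538 in the same order. In all 3 genes the DMSO libraries lay on both sides of the vehicle libraries. The largest difference was that of mt-Nd3, at 10.3 and 6.78 in vehicle, 8.88 and 32.0 in DMSO, and 23.3 and 20.9 in BI6727, with a log2 fold change of 1.26 in DMSO (SE 0.528, adjusted p = 0.126 by edgeR). Its DMSO replicate 1 lay between the vehicle libraries, it is close to the filter, and its windows are shared with Gm28438, at 0.52 in the same comparison (adjusted p = 0.252). mt-Nd4l and mt-Atp8 did not pass the filter. Among the 11, length offsets called 1 lower in DMSO and 1 higher in BI6727 against vehicle, beside 16.4% and 17.4% of all genes. With a replicate block in which the DMSO numbers were exchanged, 1 was called higher in BI6727 against vehicle, beside 11.7% of all genes.

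The DMSO replicates split the members of both genomes the same way. In 67 of 69 nuclear and 11 of 11 mitochondrial genes the level was higher in replicate 2 than in replicate 1, against 48.8% of all genes tested. The median difference between the replicates in log2 CPM was 0.48 for the nuclear and 0.88 for the mitochondrial genes, and -0.01 for all genes tested. The nuclear exceptions were Sdha (-0.12) and Ndufs1 (-0.10), which have exons of 4126 and 8086 bases. Among the mitochondrial genes the difference ran from 0.57 for mt-Nd5 to 1.84 for mt-Nd3, and the next were mt-Co3 (1.26), mt-Co2 (1.06), mt-Atp6 (1.02) and mt-Nd1 (0.96). Length went along with part of it. In the class from 1000 to 1500 bases the median was 0.57 over 15 nuclear members and 0.35 over all 447 genes, and from 3000 to 4000 bases it was 0.54 over 7 members and 0.06 over 1336 genes. After a trend on gene length was taken out of each library, the medians were 0.25 for the nuclear and 0.54 for the mitochondrial genes.

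**Figure D3:**
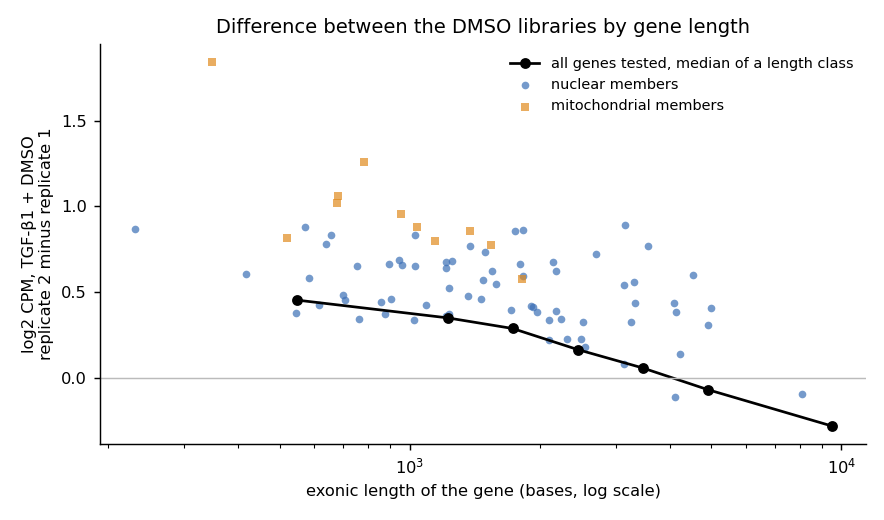
Difference in log2 CPM between DMSO replicate 2 and replicate 1 for each member that passed the filter (circles nuclear, squares mitochondrial) against exonic length on a log scale, with the median of all genes tested in 7 length classes as a line. The line falls from 0.45 to -0.28, and most members lie above it. The mitochondrial median (0.88) is above the nuclear median (0.48), but genes of like length overlap. For example, mt-Nd5 (1824 bases, 0.57) lies below Ndufa6 (1801 bases, 0.66).

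The sign of the comparison therefore depended on which DMSO library entered. With DMSO replicate 1 left out, 59 members were called higher and 2 lower than vehicle, beside 28.3% and 31.2% of all genes tested. With DMSO replicate 2 left out, 3 were called higher and 26 lower, beside 19.3% in either direction, and 10 of the 26 were mitochondrial. Relative to the mean of the vehicle libraries, the median nuclear gene was at -0.12 in DMSO replicate 1 and 0.37 in replicate 2 in log2 CPM, and the median mitochondrial gene at -0.46 and 0.36. In the BI6727 libraries the same medians were 0.11 and 0.04 for the nuclear genes and 0.05 and 0.01 for the mitochondrial genes. For complex III the 4 libraries with TGF-β1 were at 0.04, 0.63, 0.43 and 0.27, all above vehicle. Complex IV was at -0.07, 0.55, 0.30 and 0.09, and complex I at -0.19, 0.35, 0.08 and -0.04. With the length trend removed, complex III was at 0.07, 0.29, 0.33 and 0.22, complex IV at -0.03, 0.27, 0.16 and 0.05, and complex I at -0.16, 0.08, -0.01 and -0.07. The mitochondrial genes were then at -0.41, -0.02, -0.10 and -0.02, against -0.03 and 0.03 in the vehicle libraries. Replicate 1 of DMSO and of BI6727 thus lay below both vehicle libraries, and replicate 2 of each lay between them. The nuclear genes were then at -0.08, 0.14, 0.05 and -0.01. Sdhc, Uqcrc1 and Cox7a2l kept their direction against vehicle with either DMSO library left out. Their log2 fold changes were -0.39, 0.68 and 0.85 without replicate 1, and -0.70, 0.32 and 0.29 without replicate 2. A fit with 1 DMSO library holds no spread within that group, so its calls cannot show whether a difference exceeds that spread.

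**Figure D4:**
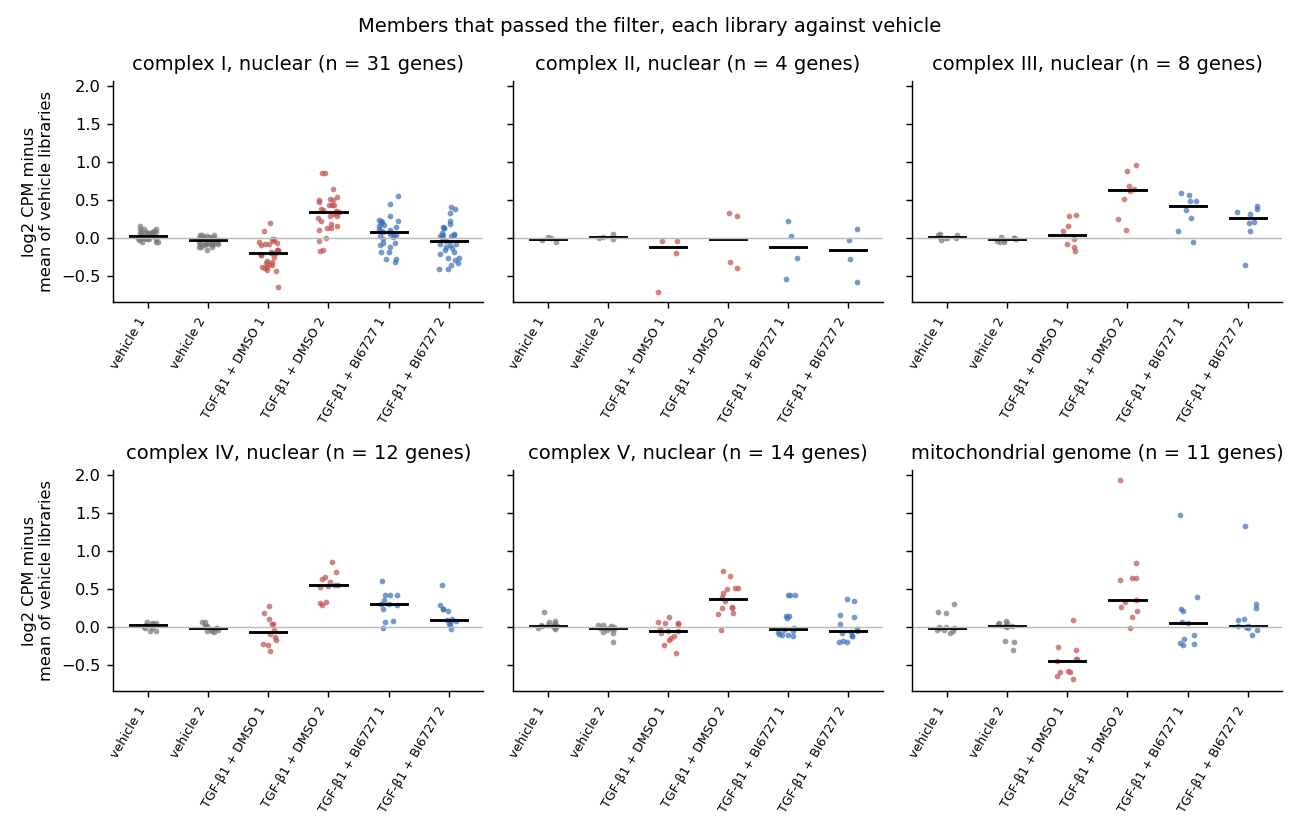
Log2 CPM of each member that passed the filter, minus the mean of the vehicle libraries, by library for the nuclear subunits of complexes I to V and for the mitochondrial genome (points, genes; bars, medians). Before any correction for gene length, the medians of the DMSO replicates lie on opposite sides of 0 for complexes I, IV and V and for the mitochondrial genome, and the median of complex III is above 0 in all 4 libraries with TGF-β1.

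BI6727 with TGF-β1 was compared with DMSO with TGF-β1 for the effect of PLK1 inhibition. No member was called in either direction at an adjusted p below 0.05 by edgeR, and the background was 0.0% in both directions. At an unadjusted p below 0.05, 0 members were higher and 1 was lower, while 206 of all genes were higher and 430 lower. DESeq2 also called no member, and of all genes 2 higher and 37 lower. The log2 differences ran from -0.35 (Ndufa13) to 0.24 (Ndufa7) among the nuclear genes, with a median of -0.08 and a median SE of 0.169, and from -0.20 (mt-Co3) to 0.18 (mt-Nd5) among the mitochondrial genes, with a median of 0.07. For Uqcrc1 the difference was -0.07 (SE 0.135), for Cox7a2l -0.02 (SE 0.172) and for Sdhc -0.01 (SE 0.122). Both BI6727 libraries lay between the DMSO libraries in 53 of 69 nuclear (76.8%) and 10 of 11 mitochondrial genes (90.9%), and in 37.1% of all genes tested. With DMSO replicate 1 left out, 58 members were called lower in BI6727 and none higher, beside 15.3% of all genes lower. With replicate 2 left out, 24 were called higher and none lower, beside 2.37% of all genes higher.

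BI6727 with TGF-β1 was also compared with vehicle. In the fit of all libraries, Cox7a2l was called higher and Sdhc lower, of 80 members, against 11.3% and 13.2% of all genes tested. This comparison shares its vehicle libraries with that of DMSO against vehicle and its BI6727 libraries with that of BI6727 against DMSO. When only these 2 groups, whose replicates agreed closely, were fitted, 25 members were called higher and 7 lower, beside 26.6% and 27.3% of all genes. Those shares of the background are close to the members' 25 of 80 above and exceed their 7 of 80 below. The calls by complex were uneven in that fit. In complex III, 6 of 8 nuclear genes were called higher, from Uqcrh (0.23) to Uqcr11 (0.51, of which 33.6% of windows are shared with Gm16418), and none lower. In complex IV, 7 of 12 were called higher and none lower, among them Cox4i1 at 0.33, Cox6c (53.6% of windows shared) at 0.35 and Cox6b1 at 0.26, with adjusted p-values of 0.000326, 0.000157 and 0.00181 by edgeR. In complex I, 6 of 31 were called higher, with Ndufa6 (0.48) and Ndufa7 (0.41) foremost, and 4 lower, Ndufa9 (-0.36), Ndufb3 (-0.31), Ndufa13 (-0.31) and Ndufa5 (-0.26). Ndufa9, a subunit of the arm that carries the electrons, was at 77.1 and 78.9 normalized CPM in vehicle, 67.0 and 77.9 in DMSO, and 62.7 and 58.8 in BI6727. In complex II, Sdhc and Sdha were called lower and Sdhd higher, and in complex V, Atp5j (0.39) and Atp5mpl (0.38) were called higher of 14. Of the mitochondrial genes, mt-Nd2 (0.24), mt-Co2 (0.34) and mt-Nd3 (1.38) were called higher and mt-Co1 (-0.14) lower.

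Genes around the pathway were described from lists, with the same test, and none of them was called in BI6727 against DMSO. Cyc1, the cytochrome c1 of complex III whose symbol the rule does not take, was at 184 and 166 normalized CPM in vehicle, 183 and 234 in DMSO and 221 and 206 in BI6727, and no gene of the cytochrome c list passed the test. For these lists, too, the background in DMSO against vehicle is 11.0% of all genes higher and 12.0% lower, and in BI6727 against vehicle 11.3% and 13.2%. Of 35 assembly factors tested, 1 rose and 3 fell in DMSO against vehicle, with a median of 0.04, and neither count exceeds that background. Coa7, a factor for complex IV, rose (0.61, adjusted p = 0.0297), and the complex I factors Tmem126b (-0.50, adjusted p = 0.0355), Ecsit (-0.69, adjusted p = 0.0393) and Foxred1 (-0.56, adjusted p = 0.0491) fell, all by edgeR. In BI6727 against vehicle, Coa7 and the complex II factor Sdhaf2 rose, and Tmem126b and Foxred1 fell. Of 20 genes of mitochondrial transcription and RNA processing, Trmt10c, a subunit of mitochondrial RNase P, rose in DMSO (0.60, adjusted p = 0.0296), and its partner Hsd17b10 fell in BI6727 (-0.59, adjusted p = 0.0267), by edgeR. Tfam, which packs mitochondrial DNA, and the RNA polymerase Polrmt were at 0.11 and 0.02 in DMSO and did not pass.

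Of 12 regulators tested, 2 rose and 2 fell in DMSO against vehicle, beside 11.0% and 12.0% of all genes. Esrra, a nuclear receptor that acts on oxidative phosphorylation genes, stood at 54.6 and 57.0 normalized CPM in vehicle, 85.5 and 124 in DMSO and 98.7 and 89.1 in BI6727. It rose by 0.91 in DMSO (SE 0.173, adjusted p = 0.0104) and 0.75 in BI6727 (adjusted p = 0.0197) on the log2 scale by edgeR. Atf4, of the stress response, rose in DMSO (0.53, adjusted p = 0.0396). Nrf1, which binds promoters of many of these genes, fell in both, from 44.6 and 42.7 in vehicle to 32.9 and 30.0 in DMSO and 29.8 and 31.3 in BI6727 (log2 fold change -0.47 and -0.52, adjusted p = 0.0275 and 0.0189 by edgeR). Hif1a, the oxygen-regulated factor, fell as well (-0.62, adjusted p = 0.0167 in DMSO). The coactivator Ppargc1a was at or below 0.29 normalized CPM in every library. Of 74 mitochondrial ribosomal proteins tested, 7 rose and none fell in DMSO, with a median of 0.18, and 2 rose and 2 fell in BI6727. Of 67 cytosolic ribosomal proteins tested, 5 rose and 1 fell in DMSO, with a median of 0.41. In neither list does the share called higher exceed the 11.0% of all genes. In these 2 lists, too, DMSO replicate 2 was above replicate 1, by medians of 0.40 and 0.58 in log2 CPM.

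Promoter sequences from RefSeq on GRCm38.p6 ran from 250 bases before to 50 after a start. They matched 66 of the 89 nuclear members by symbol or gene identifier. Sdhc had no entry. They were searched on both strands for 3 short motifs. TGCGCA, the core of the NRF1 motif, was in 17 of the 66 (25.8%) and in 7.76% of all 32851 promoters. CCGGAAG, an ETS motif that GABPA binds, was in 15 (22.7%) against 8.86%, and AAGATGG, found in YY1 motifs, in 9 (13.6%) against 6.34%. These are counts of letters and not of binding. Members entered with their first listed promoter, and the background with every listed promoter of any gene, whether expressed or not. The shares are thus not matched, and enrichment was not tested. Cox7a2l and Uqcr10 held none of the 3. The promoter of Uqcrc1, the called gene of complex III, held TGCGCA 2 times, end to end, in a run that starts 30 bases after the RefSeq start, in capitals below (GRCm38.p6 chr9:108936398-108936697, plus strand).

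Uqcrc1 promoter: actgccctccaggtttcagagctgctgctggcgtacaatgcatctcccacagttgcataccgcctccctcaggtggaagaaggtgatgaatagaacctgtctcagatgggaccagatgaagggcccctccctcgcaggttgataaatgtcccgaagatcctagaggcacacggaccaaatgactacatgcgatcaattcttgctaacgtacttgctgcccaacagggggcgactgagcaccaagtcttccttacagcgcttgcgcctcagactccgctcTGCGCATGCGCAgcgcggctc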

How the data were processed

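RNA-seq was performed on NIH/3T3 cells in 3 groups of 2 replicates. Reads were aligned by the authors with Subjunc to mm10, counted on Gencode M20 genes with featureCounts (Subread 1.6.4, per the labels), and deposited as raw counts without normalization. The strand setting and the treatment of multi-mapping reads are not given in the sources used here. Groups and replicate numbers came from the sample titles. The labels do not say whether replicates came from separate cultures, so p-values measure the spread between these libraries.

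Genes that reached 10 CPM in more than 3 libraries, 9518 in all, were tested in R 4.3.3 with edgeR 4.0.16 (TMM scaling, quasi-likelihood test, 1 fit of 6 libraries, 3 residual degrees of freedom), at a Benjamini-Hochberg adjusted p below 0.05 with no minimum fold. The SE is the log2 fold change divided by the square root of F. Log2 CPM used a prior count of 1. Depth was 18362378 to 24452153 counts a library, and 3 counts were taken as the floor, for counting error only. Alternatives were DESeq2 1.42.0, other scalings and filters, offsets from a lowess (span 0.3) on gene length, the study's limits, only the groups compared, a replicate block and each replicate left out. The fit was tested on simulated counts. Of 54752 identifiers, 54723 matched a symbol. Shared windows came from Gencode M21 transcripts, on either strand, and sequences were aligned with Biopython 1.88.

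Named genes were all mitochondrial members, called nuclear members, a fixed set of core subunits and isoforms, the 3 highest and 3 lowest levels per length, called genes of the related lists, and the 5 members that differ most between the DMSO libraries. Others, such as Uqcr10, Ndufa9 and the genes of the fit of 2 groups, were chosen after their values were seen. Members and lists were chosen with earlier results of these data known. The cytosolic ribosome list leaves out the Rps6k kinases. Same-numbered replicates did not deviate together: across genes, r was -0.11 between vehicle and DMSO, 0.047 between vehicle and BI6727, and -0.26 between DMSO and BI6727.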

Additional observations from a re-analysis of the deposited data

How the results depend on the processing

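The DMSO libraries decided the counts of members called against them, and each left-out replicate leaves an arm of 1 library that is assumed to vary like the others. Over the 6 fits that leave out a replicate, the members called ranged from 0 to 61 in DMSO against vehicle (3 in the full fit), from 0 to 58 in BI6727 against DMSO (0) and from 0 to 33 in BI6727 against vehicle (2). Without any vehicle or BI6727 replicate no member was called in any comparison, while in those fits 2.61% to 6.92% of all genes were called in each direction against vehicle and 0.0% in BI6727 against DMSO. The median of the nuclear members ranged from -0.10 to 0.37, from -0.31 to 0.17 and from 0.03 to 0.10 in the same order, and that of the mitochondrial members from -0.45 to 0.35, from -0.37 to 0.49 and from -0.0504 to 0.0351. In DMSO against vehicle, 6 members were called by DESeq2, 10 with length offsets, 0 with only the 2 groups and 1 with the replicate block, while of all genes DESeq2 called 13.9% higher and 13.7% lower, length offsets 17.2% and 16.4%, and the replicate block 8.27% and 9.15%. In BI6727 against vehicle, 4 were called by DESeq2, 13 with length offsets, 32 with only the 2 groups, 1 with the replicate block, and 4 once that block was crossed, while of all genes DESeq2 called 13.0% higher and 14.9% lower, length offsets 17.4% and 18.4%, and the replicate block 8.34% and 10.3%. An adjusted p below 0.01, with or without a fold change over 2, left 0 members in each comparison. The cause was not tested. The same-numbered replicates are not shown to be paired, and the crossed block, in which the DMSO numbers were exchanged, and the summing of mitochondrial genes with their chromosome 1 copies were added after the data were seen. In DMSO against vehicle, length offsets moved the nuclear median from 0.15 to 0.03 and the mitochondrial median from 0.01 to -0.23, and the latter was -0.09 with edgeR's filterByExpr and -0.08 with at least 10 counts in total, where more members were tested. In BI6727 against vehicle, length offsets moved the nuclear median from 0.0687 to 0.0187, and the mitochondrial median went from 0.00767 to -0.100 with length offsets, -0.0192 with edgeR's filterByExpr, -0.0199 with at least 10 counts in total, 0.0337 with the crossed replicate block and 0.0366 with copies summed. With the counts outside the mitochondrial genome as denominator, the nuclear share was 1.19% in vehicle and 1.26% in BI6727. Under the alternatives run, Sdhc, Uqcrc1 and Cox7a2l kept their direction in each comparison in which they were called. The replicate block ended the call of Uqcrc1 in DMSO (adjusted p = 0.0585 by edgeR) and of Cox7a2l in both comparisons (0.0603 and 0.0580). For genes of a few counts, such as the tissue isoforms, depth does not allow a comparison between groups.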
